A study of Mus musculus with 16 samples.

Results

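The genes described here are 10 microbial sensing genes of sorted mouse Paneth cells: the cytosolic sensors Nod1 and Nod2 and their kinase Ripk2, the Toll-like receptors Tlr2, Tlr3, Tlr4, Tlr5 and Tlr9, the adaptor Myd88 and the co-receptor Cd14. They were chosen by name, and all 10 were among the 55414 genes of the deposited count table. Of these, 9 passed the low-count filter and were tested among 11809 genes, and Tlr9 did not pass it. Paneth cells, sorted by flow cytometry from the small intestine of C57BL/6J mice, were the source of 16 RNA-seq libraries in 4 groups of 4. Mice were injected with either PBS or DEX and, 1 h afterwards, with either PBS or TNF (tumour necrosis factor), and cells were taken 3 h after that second injection. Group names give the first injection and then the second, so that DEX+PBS, for example, had DEX and later PBS. The labels give only the abbreviation DEX, read here as the glucocorticoid dexamethasone. No group carried a transgene or deletion, and neither doses nor ages of these mice are given in the sources used here.

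Toll-like receptors are membrane proteins that bind conserved microbial molecules at the cell surface or inside endosomes, and most of them signal through the adaptor MyD88 to the transcription factor NF-kB. NOD1 and NOD2 bind fragments of bacterial peptidoglycan in the cytosol and signal through the kinase RIPK2 to the same factor. In the intestinal crypt these sensors are best known for linking bacteria to the antimicrobial output of Paneth cells, and variants of human NOD2 are linked to Crohn's disease. TNF also activates NF-kB, and glucocorticoids restrain many NF-kB target genes.

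The libraries held 7286307 to 15832111 counts. The 8 Paneth cell markers, with Lyz1 and Mmp7 among them, summed to 431331 to 657207 CPM, that is counts scaled to a common library total. Nfkbia, an NF-kB target that encodes an NF-kB inhibitor, stood at 15.6 to 24.1 normalized CPM, for which library sizes were adjusted by TMM factors, in PBS+PBS and at 277 to 337 in PBS+TNF. In DEX+TNF it stood at 330.0 and 382 in libraries 1 and 2, but at 28.3 and 41.0 in libraries 3 and 4. Libraries 3 and 4 of DEX+TNF thus lay near the level of the groups without TNF. Whether those mice received TNF as labelled was not tested, and every DEX+TNF mean and fold change takes in both kinds of library. Comparisons with that group are therefore given with all 4 libraries and, where a result rests on it, also without those 2. All 4 DEX+TNF libraries had a raised level of Sgk1, a glucocorticoid-induced gene, at 24.8 to 115 normalized CPM beside 1.11 to 3.64 in PBS+PBS. Tsc22d3, also glucocorticoid-induced, was split there, with 11.4 and 10.7 normalized CPM in libraries 1 and 2 and 24.9 and 49.4 in 3 and 4. The first pair was about as high as PBS+PBS (10.1 to 16.8) and lower than DEX+PBS (20.3 to 27.0). All 4 were higher than PBS+TNF (4.82 to 7.13). DEX+TNF library 4 also had the highest sum of 4 tuft cell markers, 856 CPM, with 0.165 to 183 in the other libraries, and the highest sums of enterocyte (787), stem (1825) and enteroendocrine markers (17.3). Its level of Fkbp5, another glucocorticoid-induced gene, was 135 normalized CPM, with 43.2 to 44.6 in the other DEX+TNF libraries.

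**Figure D1:**
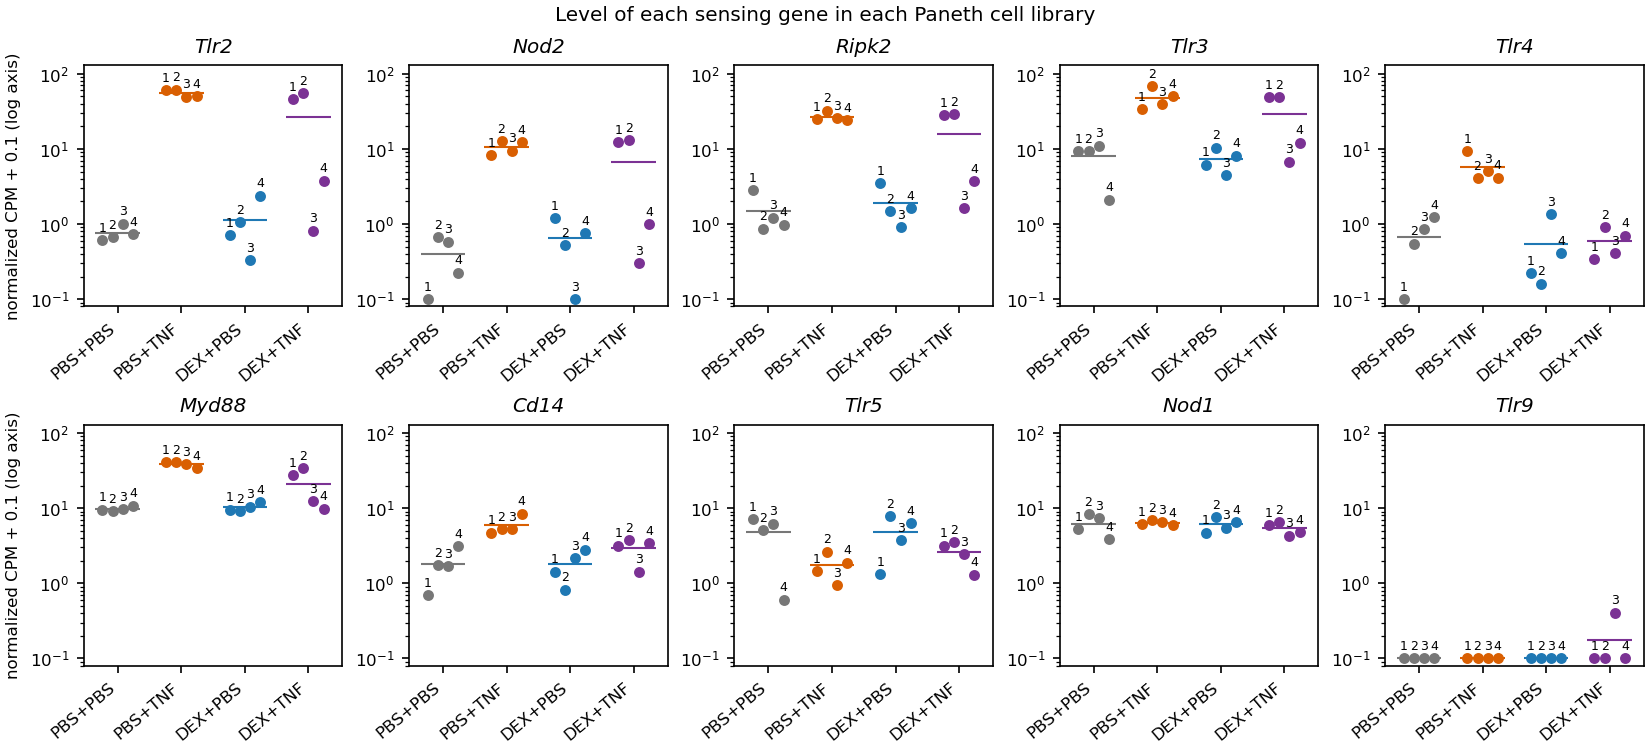
Normalized CPM plus 0.1 of each sensing gene on a log axis, with 1 numbered point per library and a line at the mean of each group of 4. Tlr2, Nod2, Ripk2, Tlr3 and Myd88 were high in all PBS+TNF libraries and in DEX+TNF libraries 1 and 2, whereas Tlr4 was high in PBS+TNF alone.

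TNF without DEX raised most of the sensing genes. Between PBS+TNF and PBS+PBS, 7 of the 9 tested genes were higher and none was lower at an adjusted p under 0.05 in edgeR's quasi-likelihood test, and the median log2 fold change of the 9 genes was 2.60. Among all 11809 tested genes 12.5% passed the same threshold, 7.15% as higher and 5.35% as lower, and the median was -0.03. The 7 genes were Tlr2, Nod2, Ripk2, Tlr4, Tlr3, Myd88 and Cd14, and for each of them the lowest PBS+TNF library exceeded the highest PBS+PBS library. The share of all tested genes whose groups lay apart in this way was not computed, for this or any other comparison. Tlr5 and Nod1 did not pass. In whole libraries of sorted cells, a change in the number of cells of a type and a change of RNA per cell cannot be told apart.

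Tlr2 encodes the receptor for bacterial lipoproteins, which acts at the cell surface together with TLR1 or TLR6. The gene lies at chr3:83743576-83749074 on the minus strand (GRCm39), and its level was 0.514, 0.575, 0.908 and 0.628 normalized CPM in PBS+PBS libraries 1 to 4. In PBS+TNF it stood at 60.3, 61.3, 49.6 and 49.9. The groups were far apart, with means of 0.656 ± 0.174 and 55.3 ± 6.38 normalized CPM (SD, n = 4), and the log2 fold change was 6.34 with an SE of 1.02 (edgeR, adjusted p = 0.00128). This was the largest fold change of the 9 tested genes, and it stayed between 6.23 and 6.58 under the 25 alternative settings. TLR6, a partner of TLR2, is encoded by the only other Toll-like receptor gene that passed the low-count filter. Its log2 fold change was 1.87 with an SE of 0.75, which did not pass (adjusted p = 0.114), although its groups did not overlap.

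Tlr4 encodes the receptor for lipopolysaccharide of Gram-negative bacteria and lies at chr4:66745783-66849936 on the plus strand. It was a low-count gene throughout, with 0, 7, 14 and 9 reads in the PBS+PBS libraries and 48, 66, 71 and 82 in PBS+TNF. On the normalized scale these were 0, 0.447, 0.747 and 1.13 CPM against 9.25, 3.98, 4.99 and 4.06. PBS+TNF library 1 had the lowest TMM normalization factor of all libraries, 0.418, and the highest normalized Tlr4 level. The log2 fold change was 3.26 with an SE of 0.79 (edgeR, adjusted p = 0.0123). Of the 3 Tlr4-overlapping long noncoding genes in the annotation, Gm69151, Gm57137 and Gm68947, none was a row of the count table.

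The 250 bases before the annotated start are shown for Tlr2, the sensing gene with the largest fold change, and for Tlr4, whose levels in DEX+TNF are described below, 5′ to 3′ on the strand of the gene (GRCm39). Capitals mark a match to GGGNNTTNCC, a short form of the NF-kB motif, searched on both strands. The first window is chr3:83749075-83749324 on the minus strand and the second is chr4:66745533-66745782 on the plus strand.
Tlr2: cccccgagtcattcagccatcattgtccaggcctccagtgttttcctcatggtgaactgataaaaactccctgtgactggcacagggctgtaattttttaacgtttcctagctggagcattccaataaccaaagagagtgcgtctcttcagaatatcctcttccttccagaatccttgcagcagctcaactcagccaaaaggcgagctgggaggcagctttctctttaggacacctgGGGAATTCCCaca
Tlr4: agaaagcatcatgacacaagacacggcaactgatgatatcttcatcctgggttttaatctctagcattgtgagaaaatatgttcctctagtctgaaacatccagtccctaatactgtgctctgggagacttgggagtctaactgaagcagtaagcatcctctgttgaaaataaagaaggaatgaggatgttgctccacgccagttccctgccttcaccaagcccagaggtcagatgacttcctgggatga
The Tlr2 window held 1 match, which began 13 bases before the start, and the Tlr4 window held none. Such a match occurred in 4.18% of the 21757 protein-coding promoters searched in the same way. Of the other sensing genes, Tlr3 had 1 match, beginning 204 bases before its start, within a window that overlaps first exons of other Tlr3 transcripts. No window of the 10 genes matched GNACANNNTGTNC, a short form of the glucocorticoid receptor motif that occurred in 0.299% of all promoters. Nod2, Ripk2 and Myd88, which also rose after TNF, had no NF-kB match in their windows. A match is a string of letters and not a measured binding site, and nothing follows from its presence in Tlr2 and absence in Tlr4.

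Tlr3 encodes the endosomal receptor for double-stranded RNA, which signals through the adaptor TRIF and not MyD88. The gene lies at chr8:45848702-45864117 on the minus strand, and its level was 9.17, 9.19, 10.9 and 2.01 normalized CPM in PBS+PBS and 33.7, 68.3, 39.4 and 50.2 in PBS+TNF. All 4 PBS+TNF libraries were higher, and the log2 fold change was 2.60 with an SE of 0.57 (edgeR, adjusted p = 0.00735). Tlr9, at chr9:106099797-106104082 on the plus strand, encodes the endosomal receptor for unmethylated CpG DNA. It had 0 counts in 15 libraries and 3 in DEX+TNF library 3, so Tlr9 RNA was not detectable at this depth outside that library. The floor for a count of 0, taken as 3 counts per library and covering counting error only, was 0.149 to 0.578 normalized CPM.

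Tlr5, the flagellin receptor gene at chr1:182782311-182805500 on the plus strand, was the one sensing gene with a sizeable lower value after TNF. Its level was 7.02, 5.04, 6.14 and 0.502 normalized CPM in PBS+PBS and 1.35, 2.53, 0.844 and 1.78 in PBS+TNF. PBS+PBS library 4 lay below all PBS+TNF libraries, whereas the other PBS+PBS libraries lay above them. The log2 fold change was -1.51 with an SE of 0.62 and did not pass (edgeR, adjusted p = 0.123). Without PBS+PBS library 4 it was -1.89 and passed (adjusted p = 0.0212), the 1 setting of 25 alternatives in which it did. That library had the lowest TMM normalization factor of PBS+PBS, 0.503.

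Myd88 encodes the adaptor shared by most Toll-like receptors and by the interleukin-1 receptor family, and lies at chr9:119165000-119170486 on the minus strand. Its level was 9.42, 8.94, 9.56 and 10.7 normalized CPM in PBS+PBS and 40.6, 41.1, 38.4 and 34.0 in PBS+TNF. The spread within each group was small beside the difference between them, with means of 9.65 ± 0.735 and 38.5 ± 3.25 (SD, n = 4) and a log2 fold change of 2.00 with an SE of 0.31 (edgeR, adjusted p = 0.00116). Myd88 overlaps Acaa1a, a peroxisomal thiolase gene on the opposite strand, and how strand was used in counting is not given in the sources used here. Acaa1a stood at 23.8 to 40.7 normalized CPM in PBS+PBS and 18.1 to 23.7 in PBS+TNF, with a log2 fold change of -0.57 (adjusted p = 0.130).

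Cd14 encodes a co-receptor that hands lipopolysaccharide to TLR4 and also takes part in TLR2 and TLR3 signalling. Its gene lies at chr18:36858120-36859851 on the minus strand. The level was 0.600, 1.66, 1.60 and 3.01 normalized CPM in PBS+PBS and 4.62, 5.12, 5.20 and 8.37 in PBS+TNF. The log2 fold change was 1.79 with an SE of 0.47 (edgeR, adjusted p = 0.0186). This was the weakest of the 7 calls: without PBS+PBS library 1, PBS+PBS library 2 or PBS+TNF library 4 the adjusted p was 0.0571, 0.0521 and 0.0626.

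Nod2, the muramyl dipeptide sensor gene at chr8:89373943-89415102 on the plus strand, was close to absent without TNF. Its level was 0, 0.575, 0.481 and 0.126 normalized CPM in PBS+PBS, from 19 reads in all, and 8.09, 12.6, 9.35 and 12.3 in PBS+TNF, from 632 reads. The log2 fold change was 4.97 with an SE of 1.03 (edgeR, adjusted p = 0.00527). Ripk2, the gene of the kinase downstream of both NOD proteins, lies at chr4:16121400-16163796 on the minus strand. It rose with Nod2, from 2.74, 0.766, 1.12 and 0.879 normalized CPM to 24.7, 32.3, 25.5 and 24.3. Its log2 fold change was 4.28 with an SE of 0.75 (edgeR, adjusted p = 0.00215). Ripk2 overlaps the noncoding gene Parail on the opposite strand, which had 0 to 29 reads per library and a log2 fold change of -2.58 (adjusted p = 0.0383).

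Nod1, which encodes the sensor of a peptidoglycan fragment found mainly in Gram-negative bacteria, behaved differently from Nod2. The gene lies at chr6:54900927-54949647 on the minus strand. Its level was 5.14, 8.30, 7.31 and 3.77 normalized CPM in PBS+PBS and 5.97, 6.87, 6.40 and 5.89 in PBS+TNF. The PBS+TNF libraries lay within the range of PBS+PBS, and the log2 fold change was 0.03 with an SE of 0.26 (edgeR, adjusted p = 0.969). Among all 16 libraries Nod1 ranged only from 3.77 to 8.30.

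Levels can be compared between genes only per length, here as normalized CPM per kilobase of joined exons. In PBS+PBS the order was Myd88 (2.48), Tlr3 (1.46), Nod1 (1.03), Cd14 (0.992), Tlr5 (0.696), Ripk2 (0.235), Tlr2 (0.119), Tlr4 (0.0829) and Nod2 (0.0588), with Tlr9 at 0. Only Myd88 stood clear of its neighbour there, and the ranges of all other neighbours overlapped. In PBS+TNF, Tlr2 (10.05), Myd88 (9.91) and Tlr3 (8.96) led with overlapping ranges, and Ripk2 (4.55), Cd14 (3.37), Nod2 (2.11), Nod1 (1.06), Tlr4 (0.795) and Tlr5 (0.242) followed. Ripk2 overlapped with Cd14 and Nod1 with Tlr4, and the other neighbours were apart. By this length Tlr2 moved from rank 7 to rank 1 and Tlr4 stayed at rank 8. Per kilobase of the longest transcript, Tlr2 moved from rank 8 to rank 2, behind Myd88 (10.8 and 11.5 in PBS+TNF), and Tlr4 stayed at rank 7.

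**Figure D2:**
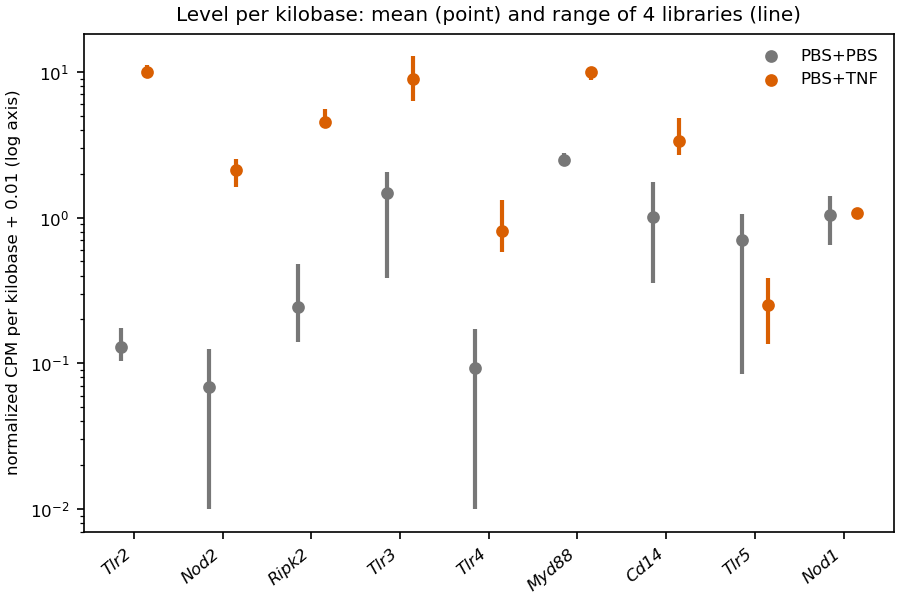
Normalized CPM per kilobase plus 0.01, on a log axis, of the 9 tested genes in PBS+PBS and PBS+TNF, with the mean of 4 libraries as a point and their range as a line. Nod1 stayed near 1.03 to 1.06, while Tlr2 went from 0.119 to 10.05.

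Markers of other cells gave these values beside the TNF comparison. Of 14 macrophage and neutrophil markers, S100a8, S100a9 and Csf3r had no count in any library, and 7 stayed under 10 counts in all libraries. Lyz2, a near-identical copy of the Paneth cell gene Lyz1, made up over 85% of their sum in 15 libraries and 44.1% in DEX+TNF library 4, where Ptprc had 422 counts. Without Lyz2 the sum ran up to 1.75 CPM in PBS+PBS and 5.86 in PBS+TNF. With DEX it reached 11.2 CPM in DEX+PBS and, in library 4, 38.1 in DEX+TNF. In PBS+TNF libraries 1 to 4 that sum was 0.0804, 0.378, 5.30 and 5.86 CPM, and Cd14 was lowest in library 1 and highest in library 4 as well, while Tlr2 was higher in libraries 1 and 2 than in 3 and 4. The stem, tuft and enteroendocrine marker sums of PBS+TNF were highest in library 4 too, with 1192 CPM for stem and 183 for tuft markers. The part of any of these cells in the result for Cd14 was not tested. The sum of 8 lymphocyte markers was at most 0.214 CPM, with 5 of them at 0 in all libraries, and that of 8 endothelial and stromal markers at most 1.42 CPM. The sum of 8 enterocyte markers was 182 to 380 CPM in PBS+PBS and 31.3 to 117 in PBS+TNF, beside 787 in DEX+TNF library 4. Goblet markers gave the largest sums outside the Paneth cell markers, at 3473 to 6081 CPM in PBS+PBS and 1301 to 9454 in PBS+TNF. Stem markers summed to 382 to 875 CPM in PBS+PBS and 208 to 1192 in PBS+TNF. Tuft markers summed to 3.21 to 54.8 and 4.84 to 183 CPM. The part of these cells in the results was not tested.

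DEX without TNF left no sensing gene past the threshold. Between DEX+PBS and PBS+PBS 0 of the 9 genes were called by edgeR, 0 at an unadjusted p under 0.05 and 0 by DESeq2, and their log2 fold changes ran from -0.48 for Tlr4 to 0.75 for Tlr2. Of all tested genes, 0.00847%, which is 1 gene, was called by edgeR, 1.9% had an unadjusted p under 0.05 and 0.0593% were called by DESeq2. Counts of 0 among 9 genes are near those shares. The groups overlapped for all 9 genes, and for the low genes the SE was large (1.03 for Tlr2, 1.11 for Nod2). For Myd88, with 9.47, 9.04, 10.4 and 11.9 normalized CPM in DEX+PBS, the log2 fold change was 0.09 with an SE of 0.30.

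**Figure D3:**
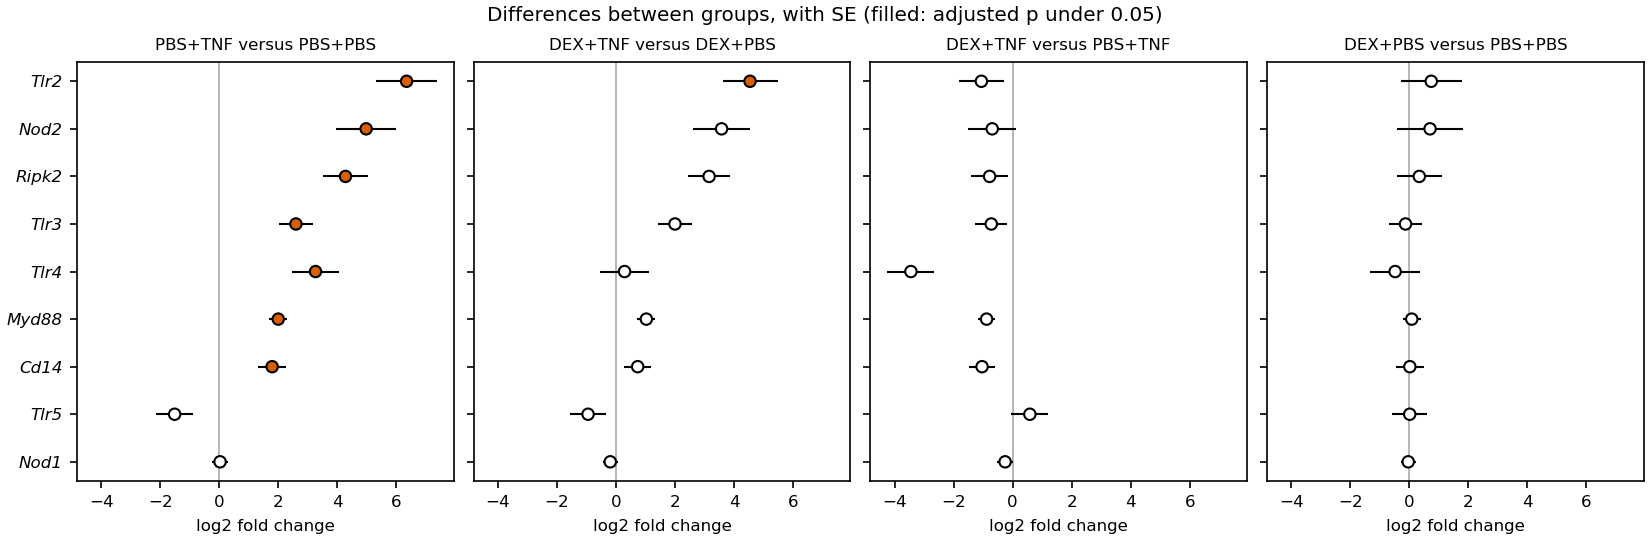
Log2 fold changes with SE from edgeR for the 9 tested genes in 4 comparisons, with filled points for an adjusted p under 0.05. The first panel has 7 filled points and the second has 1, Tlr2. Comparisons that name the same group share its libraries.

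With DEX given first, the DEX+TNF libraries split. Tlr2 stood at 46.3, 55.5, 0.715 and 3.69 normalized CPM in DEX+TNF libraries 1 to 4 and at 0.607, 0.965, 0.229 and 2.29 in DEX+PBS. Libraries 1 and 2 were close to PBS+TNF, whereas library 3 lay within and library 4 above the range of DEX+PBS. The log2 fold change of DEX+TNF against DEX+PBS was 4.54 with an SE of 0.93 (edgeR, adjusted p = 0.0488), and it passed in 7 of the 25 alternative settings, with an adjusted p of 3.66e-07 to 0.737. It was the only sensing gene called in that comparison, in which 0.339% of all genes were called. Without libraries 3 and 4, when 10.5% of all genes were called, it was 5.46 and 5 sensing genes were called, namely Tlr2, Ripk2 (4.04), Nod2 (4.52), Tlr3 (2.75) and Myd88 (1.59). Without libraries 1 and 2, Tlr2 was at 1.03 (adjusted p = 0.737), and no sensing gene was called by edgeR, with 0 of all genes called.

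Nod2, Ripk2, Tlr3 and Myd88 divided the same 4 libraries in the same way. In DEX+TNF libraries 1 to 4, Nod2 stood at 12.2, 13.1, 0.204 and 0.898 normalized CPM and Ripk2 at 27.9, 29.2, 1.53 and 3.64. Tlr3 stood at 48.7, 49.2, 6.63 and 12.0, and Myd88 at 27.6, 34.1, 12.2 and 9.72. For each of these genes libraries 1 and 2 exceeded every DEX+PBS library. Their log2 fold changes against DEX+PBS over all 4 libraries were 3.58 for Nod2 (adjusted p = 0.134), 3.16 for Ripk2 (0.0807), 2.00 for Tlr3 (0.149) and 1.03 for Myd88 (0.173), and none passed in edgeR.

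Tlr4 did not divide the DEX+TNF libraries. It had 3, 10, 3 and 12 reads there, which is 0.242, 0.809, 0.306 and 0.598 normalized CPM, and libraries 1 and 2 were as low as libraries 3 and 4. In DEX+PBS it stood at 0.121, 0.0603, 1.26 and 0.306, and the log2 fold change of DEX+TNF against DEX+PBS was 0.29 with an SE of 0.84 (0.40 without libraries 3 and 4). Every DEX+TNF library was below every PBS+TNF library, whose lowest level was 3.98. In DEX+TNF libraries 1 and 2 there were 0.523 and 1.46 Tlr4 reads for each 100 Tlr2 reads, and in the PBS+TNF libraries 6.50 to 15.3. The first 2 ratios rest on 3 and 10 Tlr4 reads. Where Tlr2 was low the ratio varied widely, from 0 to 180 in PBS+PBS and 6.25 to 550 in DEX+PBS. In DEX+TNF libraries 3 and 4 it was 42.9 and 16.2.

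**Figure D4:**
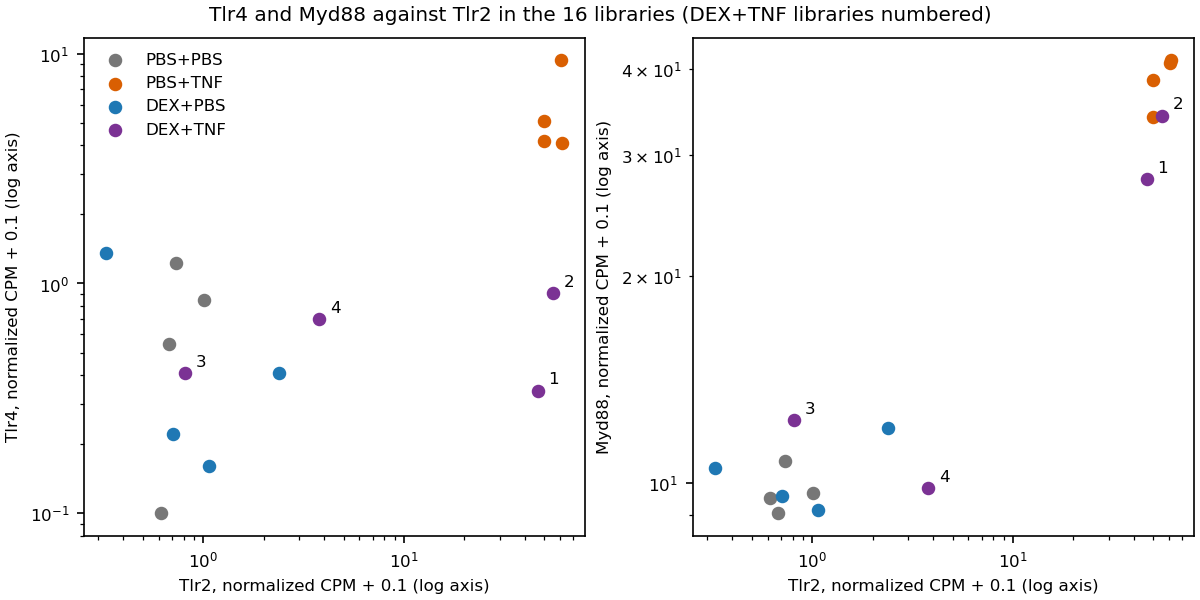
Normalized CPM plus 0.1 of Tlr4 and of Myd88 against Tlr2 in 16 libraries, on log axes, with the DEX+TNF libraries numbered. DEX+TNF libraries 1 and 2 lie with PBS+TNF on the Tlr2 axis and on or near it on the Myd88 axis, but at 0.242 and 0.809 normalized CPM on the Tlr4 axis.

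Between DEX+TNF and PBS+TNF, Tlr4 was the sensing gene nearest to the threshold. Its log2 fold change was -3.44 with an SE of 0.80 (edgeR, adjusted p = 0.0797), so it did not pass. It passed under 4 of 25 alternatives: DESeq2 (-3.50, adjusted p = 0.000575), no low-count filter, without PBS+PBS library 1, and without DEX+TNF libraries 1 and 2. The last of these keeps only the DEX+TNF libraries near the level without TNF. There 6 sensing genes and 1317 of all genes were called, so that pass was not particular to Tlr4. Without DEX+TNF libraries 3 and 4 the Tlr4 value was -3.35 (adjusted p = 0.333), and over all alternatives it lay between -3.76 and -3.09. The interaction, which asks whether the TNF difference was the same with and without DEX, was -2.97 with an SE of 1.16 for Tlr4 (unadjusted p = 0.0202, edgeR adjusted p = 0.850). Without DEX+TNF libraries 3 and 4 it was -2.86 (adjusted p = 0.892).

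Cd14 was also lower in every DEX+TNF library than in every PBS+TNF library, and the share of all genes with such a gap was not computed. It stood at 3.07, 3.64, 1.33 and 3.34 normalized CPM, which overlapped with DEX+PBS at 1.34, 0.723, 2.06 and 2.702. The log2 fold change against PBS+TNF was -1.03 with an SE of 0.45 (edgeR, adjusted p = 0.371) and stayed between -1.30 and -0.80 under the alternatives, never past the threshold. In all, 0 of the 9 genes were called between DEX+TNF and PBS+TNF by edgeR, 3 had an unadjusted p under 0.05 (Tlr4, Cd14 and Myd88) and 1 was called by DESeq2. Over all genes the shares were 0.339%, 11.9% and 2.32%. For the interaction the counts were 0 by edgeR, 2 at an unadjusted p under 0.05 and 0 by DESeq2, and the shares over all genes were 0%, 5.44% and 0.0762%.

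For Tlr2, Nod2, Ripk2 and Tlr3 the difference between DEX+TNF and PBS+TNF rested on libraries 3 and 4. The log2 fold changes were -1.06, -0.69, -0.78 and -0.72 with all libraries and -0.11, 0.25, 0.10 and 0.03 without those 2. Myd88 went from -0.88 (adjusted p = 0.221) to -0.32 (adjusted p = 0.580). Nod1 in DEX+TNF, at 5.81, 6.39, 4.18 and 4.74, and Tlr5, at 3.07, 3.40, 2.35 and 1.20, overlapped with every other group.

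The other genes of both pathways were described from a list of 54 genes, of which 39 passed the low-count filter. Between PBS+TNF and PBS+PBS, 8 of the 39 rose and 1 fell, beside 7.15% and 5.35% of all genes, with a median log2 fold change of 0.47 against -0.03 for all genes. The adaptors had 2 of 3 tested genes called, Tifa and Tirap, the kinases and ubiquitin ligases 5 of 15 and the transcription factors 2 of 4, Irf5 and Irf7. None of 6 receptor accessory and trafficking genes, 3 inhibitors or 7 NOD partners and muropeptide transporters was called by edgeR, 1, 0 and 3 of them had an unadjusted p under 0.05, and DESeq2 called 1, 0 and 1 of them (Lbp and Slc46a3). Over all genes, 26.4% had an unadjusted p under 0.05 in edgeR and 17.5% were called by DESeq2.

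Tifa, an adaptor that acts after sensing of a bacterial sugar, rose from 52.8 ± 11.6 to 673 ± 254 normalized CPM (SD, n = 4), with a log2 fold change of 3.67 (edgeR, adjusted p = 0.00123). In DEX+TNF it ran from 40.2 to 381, below every PBS+TNF library (418 to 1010). Its highest DEX+TNF level was above DEX+PBS (23.4 to 56.4), whereas that of Tlr4 (0.809) was not (up to 1.26). The Tifa log2 fold change of DEX+TNF against PBS+TNF was -1.62 and did not pass (edgeR, adjusted p = 0.213). Its value without DEX+TNF libraries 3 and 4 is not given here. Ikbke, a kinase gene of interferon induction related to Tbk1, rose from 8.34 ± 1.31 to 47.0 ± 7.22 (2.49, adjusted p = 0.00378). Map3k8, a kinase upstream of ERK signalling, rose from 0.613 ± 0.290 to 2.56 ± 0.680 (2.02, adjusted p = 0.0103). Like Tlr4 and Tifa, it was lower in each DEX+TNF library, at 0.887, 1.46, 1.02 and 0.449 normalized CPM, than in each PBS+TNF library (lowest 1.55). Its log2 fold change there was -1.43 and did not pass (edgeR, adjusted p = 0.196). Without DEX+TNF libraries 3 and 4 it was -1.11 (adjusted p = 0.504). Irf5, an interferon-regulatory factor gene, had 3 reads in the 4 PBS+PBS libraries together and 497 in PBS+TNF, a ratio of 159 after scaling (exact 95% counting interval 54.2 to 775, edgeR adjusted p = 0.00246). Peli2, a ubiquitin ligase gene, fell by 1.24 on the log2 scale (adjusted p = 0.0366), although its groups overlapped. Irf5 was also the 1 pathway gene called between DEX+TNF and DEX+PBS, with 265 reads against 2 (ratio 129, interval 35.4 to 1071, edgeR adjusted p = 0.0456). Such an interval, here and for PBS+TNF, covers counting error only and not the spread between mice. DEX+TNF libraries 1 to 4 held 149, 108, 1 and 7 of those reads, the same division as for Tlr2, and the adjusted p without libraries 3 and 4 was 1.46e-06. No pathway gene was called by edgeR for DEX+PBS against PBS+PBS, DEX+TNF against PBS+TNF or the interaction, where 2, 6 and 2 of the 39 had an unadjusted p under 0.05, beside 1.9%, 11.9% and 5.44% of all genes, and DESeq2 called 0 in each.

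A second list held 15 sensors of nucleic acids and peptidoglycan from other families. Of the 11 that passed the filter, 5 rose between PBS+TNF and PBS+PBS and none fell, beside 7.15% and 5.35% of all genes. The 5 were Sting1, Dhx58, Zbp1, Nlrx1 and Rigi. Sting1, which encodes the endoplasmic reticulum adaptor for cyclic dinucleotides, rose from 10.1 ± 2.65 to 63.1 ± 15.1 normalized CPM (SD, n = 4), with a log2 fold change of 2.63 (edgeR, adjusted p = 0.00687). In DEX+TNF it ran from 6.02 to 62.1.

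**Figure D5:**
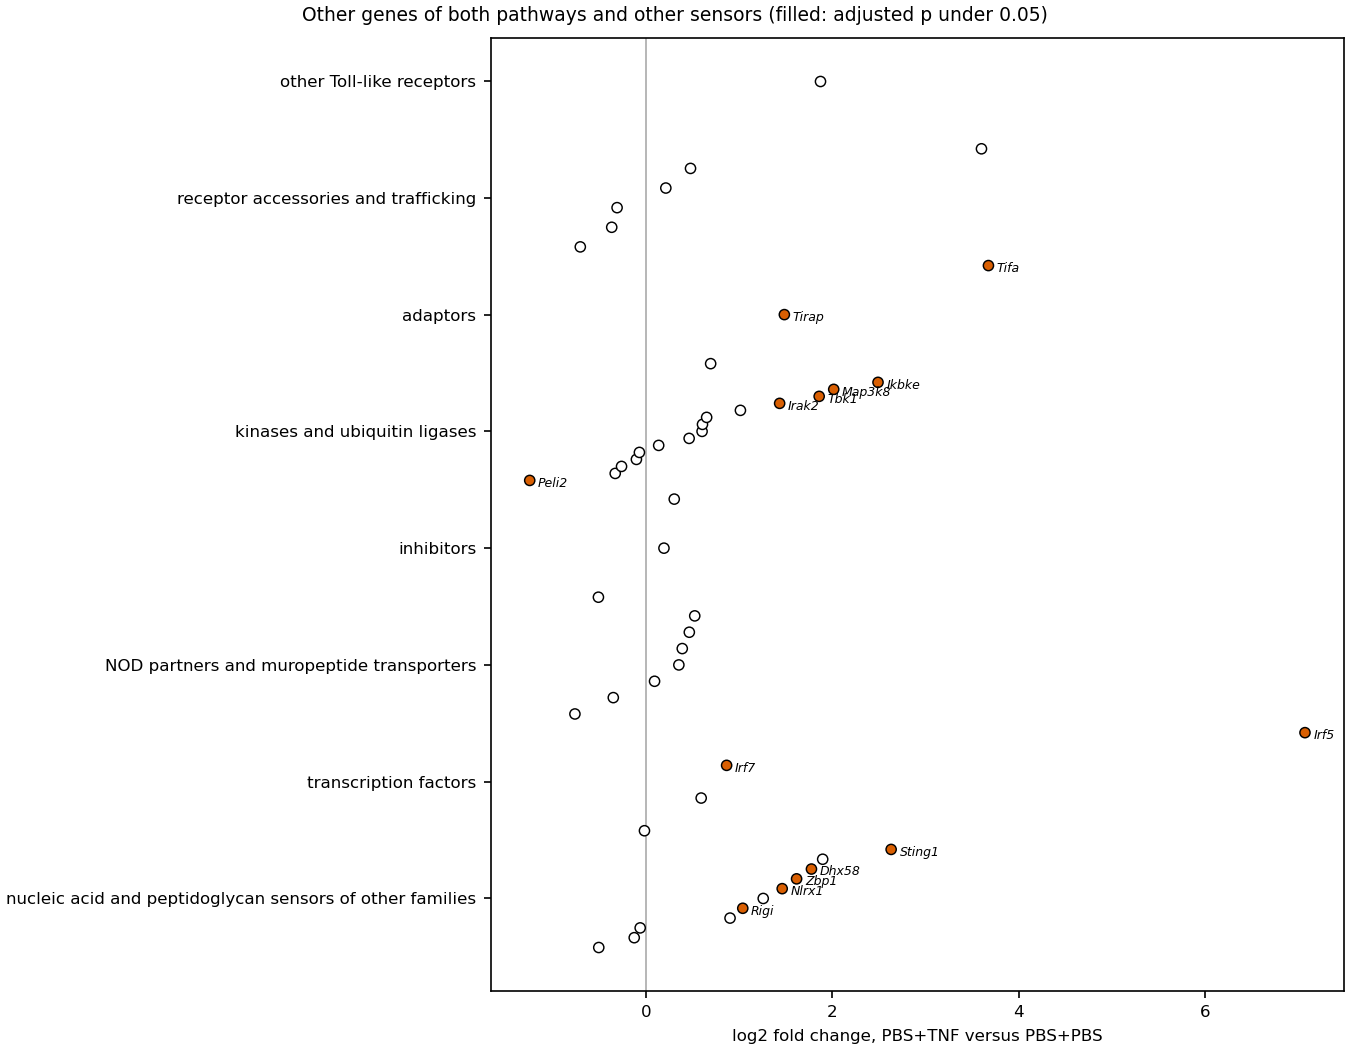
Log2 fold changes between PBS+TNF and PBS+PBS of the tested genes of both lists, by role, with filled and named points for an adjusted p under 0.05. Irf5 at 7.07 and Tifa at 3.67 lie farthest to the right, and Peli2 at -1.24 is the one filled point below 0.

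The genes most like each sensing gene across the 16 libraries were found by Pearson's r of log2 CPM, as a description. The points share their groups and scaling, and 6 of the 16 libraries are high in Nfkbia. Tlr2 and Ripk2 were both most like Icam1, which encodes a leukocyte adhesion molecule (r = 0.986 and 0.981). Nod2 was most like Dusp10 (0.984), Tlr3 like Itga3 (0.988) and Myd88 like Mpzl1 (0.990). Tlr4 was most like Htra2 (0.908), Bzw2 (0.900) and Gpx2 (0.889), and Cd14 like Anxa2 (0.936), Ripk3 (0.913) and Ogfr (0.910). Tlr5 was most like Ret (0.947), and Nod1 like Gtf2ird1 (0.842).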

How the data were processed

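RNA of sorted Paneth cells was sequenced from 16 mice in 4 groups. The authors deposited raw read counts per Ensembl gene. The submitters' processing notes name FastQC 0.12, STAR 2.7.10a, DESeq2 and mm39. The counting program, its use of strand and its treatment of reads with several positions are not given in the sources used here. Groups came from the sample labels, and each library came from 1 mouse. Counts were tested with edgeR 4.0.16 (limma 3.58.1, R 4.3.3) after filterByExpr and TMM scaling, with 1 mean per group over all 16 libraries, the robust quasi-likelihood test and Benjamini-Hochberg adjustment over 11809 genes. Called means an adjusted p under 0.05. DESeq2 1.42.0 was an alternative. Total counts were 7286307 to 15832111, and 1 normalized CPM stood for 5.19 to 20.2 reads. Positions and lengths came from GENCODE M39, which held 54749 of the 55414 identifiers. Scripts were tested on simulated data. Pairs of libraries within a group differed by at least 8.91 in chi-square per degree of freedom, so all were counted separately. That lowest value was for DEX+TNF libraries 1 and 2, and the next lowest, for PBS+PBS libraries 2 and 3, was 24.6. Whether DEX+TNF libraries 1 and 2 are independent was not tested beyond this value. The genes and lists were chosen with earlier results of these data known. Besides the 10 sensing genes, the named genes were, per comparison, up to 5 called list genes in each direction whose mean over all libraries reached 1 CPM, and for each sensing gene the most similar ones. Tlr6, Tirap, Irf7, Lbp, Slc46a3, Dhx58, Zbp1, Nlrx1, Rigi, the overlapping genes and the marker genes were named after their values were seen.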

Additional observations from a re-analysis of the deposited data

Results flagged for a closer look

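Each of the 37 groups of 4 libraries with a value above 0 was searched for a single library far from the other 3 by Dixon's ratio, which flags about 1 in 20 groups by chance, or 1.85 here. PBS+TNF library 2 had 32.3 normalized CPM of Ripk2, with 24.3 to 25.5 in the other 3. PBS+TNF library 4 had 8.37 normalized CPM of Cd14, with 4.62 to 5.20 in the others. DEX+TNF library 3 had 0.306 normalized CPM of Tlr9, which is 3 reads, with 0 in the others.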

How the results depend on the processing

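For PBS+TNF against PBS+PBS, Tlr2, Nod2, Ripk2, Tlr3, Tlr4 and Myd88 kept their direction and call under all 25 alternatives, and Cd14 kept its direction. Leaving out 1 library at a time gave 6 to 8 sensing genes and 916 to 1698 of all genes, the lowest without PBS+PBS library 1. Nod1 was -0.086 with upper-quartile factors and -0.16 to 0.21 without 1 library. Upper-quartile factors shifted the median of all genes from -0.03 to -0.15. Without DEX+TNF libraries 3 and 4, 15 pathway genes were called in that comparison instead of 9, while the share of all genes called went from 12.5% to 17.7%. For DEX+TNF against DEX+PBS the counts of sensing, pathway and all genes, 1, 1 and 40, became 0, 0 and 6 without the low-count filter and 3, 4 and 259 with DESeq2. They became 0, 0 and 0 with only the 2 groups compared, with the replicate block and without DEX+TNF libraries 1 and 2, and 5, 12 and 1286 without DEX+TNF libraries 3 and 4. Leaving out 1 library gave 0 to 5, 0 to 5 and 0 to 362, the last without DEX+TNF library 3. For DEX+TNF against PBS+TNF, 0 sensing and 40 of all genes became 1 sensing gene without the filter, 1 and 274 with DESeq2, and 0 of all genes with only the 2 groups compared. They became 16 of all genes with the replicate block, 0 without DEX+TNF libraries 3 and 4, and 6 sensing, 9 pathway and 1317 of all genes without libraries 1 and 2. Leaving out 1 library gave 0 to 1 and 0 to 102, the last without DEX+TNF library 2. Without DEX+TNF libraries 3 and 4, Nod2 (0.25), Ripk2 (0.10) and Tlr3 (0.030) changed sign there, Nod1 (0.014) changed sign against DEX+PBS, and Tlr3 (0.16) in the interaction. For DEX+PBS against PBS+PBS all genes called went from 1 to 7 with DESeq2, 2 without DEX+TNF libraries 3 and 4, and 0 to 2 without 1 library. For the interaction they went from 0 to 9 with DESeq2 and 0 to 1 without 1 library, and 4 sensing, 4 pathway and 458 of all genes were called without DEX+TNF libraries 1 and 2. Uncalled values that changed sign without 1 library spanned, for DEX+PBS against PBS+PBS, -0.34 to 0.38 for Cd14, -0.21 to 0.14 for Nod1, -0.43 to 0.071 for Tlr3, -0.34 to 0.32 for Tlr5, -0.10 to 0.89 for Ripk2, -0.054 to 1.02 for Tlr2 and -0.0044 to 0.14 for Myd88, and -0.13 to 1.48 for Tlr4 against DEX+PBS in DEX+TNF. The replicate numbers were not taken as pairs, since deviations of equally numbered libraries correlated from -0.365 to 0.504 and not all above 0.1. As a hint the other way, the libraries numbered 2 correlated at 0.153 to 0.412, and 9 of 16 libraries correlated best with their own number. With the replicate block 7 sensing genes were still called for PBS+TNF against PBS+PBS. Low counts of Tlr4, Nod2 and Tlr9 limit what can be seen for them. The causes of these shifts were not tested.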
